A study of Homo sapiens with 6 samples.

Results

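Transcripts of glucose transport, glycolysis, lactate metabolism and the hypoxia response were examined in Jurkat cells, an established human line from T-cell acute lymphoblastic leukaemia (T-ALL). The set was chosen by gene symbol, with earlier results of these data known, and lists 34 genes. Of these, 30 had a named probe set among the 17687 genes named on the array, and 29 had a signal high enough to be tested, out of 13455 genes tested. PFKFB4, SLC16A1, SLC16A3 and CA9 have no probe set named here. The tested group had received the chemokine CXCL12 at 100 ng/ml for 15 min (3 arrays), and the comparison group was left unstimulated (3 arrays, called untreated). Cells of both groups had first been kept without serum for 90 min, so the serum withdrawal is shared, and all arrays come from 1 cell line. The sample titles call the arrays biological replicates, without saying whether the cultures were separate. The p-values below therefore rest on how far these samples scatter, a scatter that could be technical. In such bulk samples, fewer cells carrying a transcript and less of it per cell cannot be told apart.

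Glucose enters cells through facilitative transporters such as GLUT1, encoded by SLC2A1, and GLUT3, encoded by SLC2A3, and hexokinases trap it by phosphorylation. The glycolytic enzymes turn it into pyruvate. Lactate dehydrogenase reduces pyruvate to lactate, while pyruvate dehydrogenase kinases inactivate pyruvate dehydrogenase, the mitochondrial enzyme that uses pyruvate. HIF-1 is a transcription factor that binds the letters ACGTG or GCGTG near many of these genes. When oxygen is present, prolyl hydroxylases of the EGLN family mark its subunit HIF1A for destruction, so HIF-1 is controlled mainly through protein stability. Proliferating T cells and T-cell leukaemias are known for high glycolysis.

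Values are log2 signals, where a difference of 1 is a doubling, and changes are CXCL12 minus untreated. Each change was tested with limma across all 16086 probe sets whose mean reached 4.44, the limit below which a probe set was called dim. A change was called where the p-value adjusted by the Benjamini-Hochberg method over all of them was under 0.05. The array response to CXCL12 was present, with EGR1, an immediate early transcription factor, at 7.97 ± 0.17 in CXCL12 arrays and 5.99 ± 0.11 in untreated arrays (SD, n = 3 each, limma adjusted p = 4.52e-05). Untreated replicate 1 stood apart from the other arrays, with a mean correlation of 0.982, against 0.987 to 0.989 for the others. All 14 markers of the T lineage were above the dim limit, among them CD3E, a chain of the T cell receptor complex, at 11.1 in CXCL12 and 11.2 in untreated arrays. Of the markers of other cell types, 3 of 4 named for B cells, 3 of 5 for myeloid cells, 1 of 4 for natural killer cells, 3 of 4 for erythroid cells and 3 of 4 for fibroblasts were above it as well. Examples above it are CD79A (B lineage, 7.93 in CXCL12 and 7.92 in untreated arrays), NKG7 (natural killer cells, 7.13 and 7.14), CD14 (myeloid, 5.68 and 5.77), HBA1 (erythroid, 7.45 and 7.47) and COL1A1 (fibroblast, 6.58 and 6.75). Below it were, for instance, MS4A1 (B cells, 3.43 and 3.50) and KLRD1 (natural killer cells, 2.63 and 2.55). In each of these marker lists, T lineage included, 0 genes passed the adjusted threshold between the groups, and what the signal of the other lineages' markers comes from was not tested.

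What many of the genes share outside their enzymology is the HIF core in the sequence before their start. RefSeq promoters (GRCh38.p14) were found for 29 of the 34 genes, but not for SLC2A3, SLC16A1, VEGFA, NDRG1 and BNIP3L, and the 250 bases before each listed start were searched on both strands. ACGTG or GCGTG was present for 24 of these 29 genes, against 47.4% of 27305 genes with a promoter in the same table. Counted separately, ACGTG was present for 19 genes (65.5%), against 21.7% of all genes, and GCGTG for 14 genes (48.3%), against 36.2%. Some genes held both. A gene with several listed starts was counted once if any of them held the letters. The stretches below are shown, 5′ to 3′ and ending at the base before the start, with each HIF core on either strand in capitals. LDHA, PGK1 and ENO1 are shown as enzymes of the set that hold the core, and SLC2A1 as a transporter of the set that has none in this window. ADM, from a list of further HIF targets, is shown because it had the largest positive change among the pathway genes described below.
LDHA, chr11:18394313-18394562, plus strand, the first of 2 listed starts: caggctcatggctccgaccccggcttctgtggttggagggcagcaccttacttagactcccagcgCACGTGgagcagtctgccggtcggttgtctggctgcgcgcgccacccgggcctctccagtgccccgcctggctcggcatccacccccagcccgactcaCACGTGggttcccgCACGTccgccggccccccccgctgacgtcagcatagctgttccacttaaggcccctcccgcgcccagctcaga
PGK1, chrX:78103998-78104247, plus strand: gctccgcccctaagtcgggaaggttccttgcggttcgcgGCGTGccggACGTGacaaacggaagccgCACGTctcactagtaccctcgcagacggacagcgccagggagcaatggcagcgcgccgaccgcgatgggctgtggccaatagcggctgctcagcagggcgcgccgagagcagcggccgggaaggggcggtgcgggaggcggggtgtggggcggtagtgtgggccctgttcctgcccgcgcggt
ENO1, chr1:8878687-8878936, minus strand: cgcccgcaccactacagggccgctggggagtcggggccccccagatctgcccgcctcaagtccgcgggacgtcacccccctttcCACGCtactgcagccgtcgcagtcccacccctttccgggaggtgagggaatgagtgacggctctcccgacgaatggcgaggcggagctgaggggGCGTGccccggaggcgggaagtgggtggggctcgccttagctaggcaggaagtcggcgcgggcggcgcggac
SLC2A1, chr1:42958869-42959118, minus strand: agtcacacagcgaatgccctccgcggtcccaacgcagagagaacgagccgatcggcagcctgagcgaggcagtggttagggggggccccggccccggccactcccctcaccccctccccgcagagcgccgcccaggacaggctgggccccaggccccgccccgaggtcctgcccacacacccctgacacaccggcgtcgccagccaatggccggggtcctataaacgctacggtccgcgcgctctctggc
ADM, chr11:10304823-10305072, plus strand: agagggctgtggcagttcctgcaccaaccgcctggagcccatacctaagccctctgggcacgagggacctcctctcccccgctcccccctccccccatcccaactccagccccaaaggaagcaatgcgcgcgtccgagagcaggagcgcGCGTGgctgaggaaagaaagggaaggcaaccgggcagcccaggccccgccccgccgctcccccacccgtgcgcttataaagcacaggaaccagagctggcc

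The core occurs at 3 places in the LDHA stretch, where CACGTG reads as a core on both strands at 2 of them, at 3 places in that of PGK1, at 2 in that of ENO1 and at 1 in that of ADM. These matches describe the letters and do not show binding. The 21 tested genes of the set with a core had changes between -0.30 and 0.20 (median -0.09), and the 4 tested genes without one had changes between -0.21 and 0.06 (median -0.02). SLC2A3 (0.59) is in neither group, nor are VEGFA, NDRG1 and BNIP3L. Of other motifs, the AP-1 motif TGANTCA was present for 3 of the 29 genes (CA9, ENO2 and HK1), against 8.06% of all genes. The cyclic AMP response element TGACGTCA was present for 1 (LDHA), against 2.03%. Matches were counted on both strands, and a match of one motif may overlap another at its ends.

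SLC2A3, the high-affinity glucose transporter GLUT3, had the largest change of the set. It was singled out with earlier results of these data known, so its p-values and rank are description and not independent support. Its signal was 8.97, 9.0 and 9.27 in CXCL12 replicates 1, 2 and 3, and 8.25, 8.61 and 8.58 in untreated replicates 1, 2 and 3. The groups did not overlap, and the lowest CXCL12 array lay 0.35 above the highest untreated one. CXCL12 arrays averaged 9.08 ± 0.17 and untreated arrays 8.48 ± 0.20 (SD, n = 3 each). This is a log2 change of 0.59 (SE 0.14, 95% interval 0.29 to 0.90), or 1.51-fold (1.22 to 1.87). The change missed the adjusted threshold (limma unadjusted p = 0.00117, adjusted p = 0.829). An exact two-sided permutation test of the 6 values gave p = 0.1, the smallest that 3 arrays against 3 allow. By p-value SLC2A3 was number 21 of the 16086 probe sets, and 20 probe sets, itself among them, had a change at least as high.

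Among the 29 tested genes, 0 passed the adjusted threshold, against 0.0124% of all probe sets. SLC2A3 was the 1 gene with an unadjusted limma p under 0.05 and a higher signal with CXCL12, where 2.72% of all probe sets met this. It was also the 1 gene at least 1.5-fold higher with such a p, where 0.137% of all did. At the plain unadjusted threshold, 1 of 29 is near the share of all probe sets. As SLC2A3 was singled out with earlier results known, neither count shows an excess in the set. The 1.51-fold change of SLC2A3 only just met the 1.5-fold size, and it was below 1.5-fold in 4 of 15 other settings. These were median centring (log2 change 0.57), array weights (0.53), and leaving out CXCL12 replicate 3 (0.50) or untreated replicate 1 (0.48). None of the 29 had such a p with a lower signal, against 2.01% of all. The number of genes with an unadjusted p under 0.05 became 3 without untreated replicate 1, where HK1 (-0.28) and HK2 (-0.38) joined SLC2A3, with limma adjusted p of 0.998 and 0.981. It became 2 when CXCL12 replicate 1 was left out (NDRG1, -0.36), and HIF1A joined SLC2A3 when CXCL12 replicate 2 (-0.49) or untreated replicate 2 (-0.42) was left out. SLC2A3 itself had 0.48 at the least, when untreated replicate 1 was dropped, and 0.66 at the most, when untreated replicate 2 was.

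**Figure D1:**
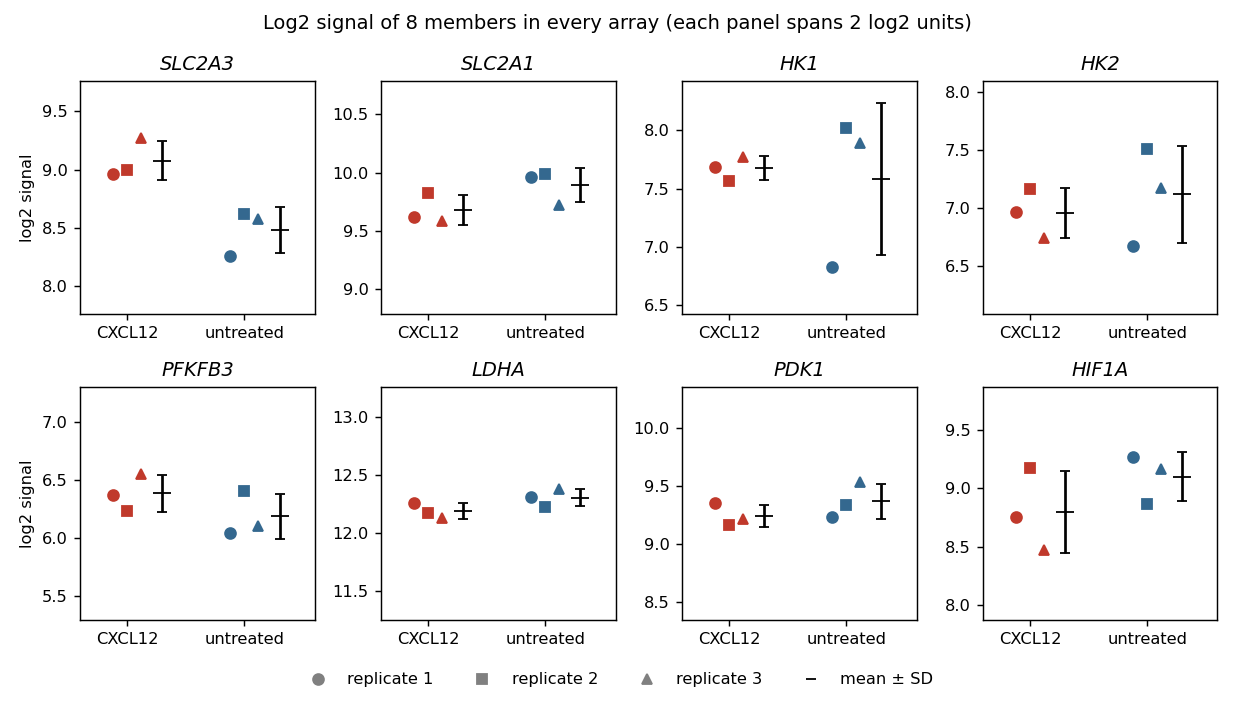
Log2 signal (y axis) of 8 genes of the set in CXCL12 arrays (left, red) and untreated arrays (right, blue), 1 panel per gene, with the replicate shown by the symbol and the mean ± SD beside it. SLC2A3 is the gene whose groups are separate, and untreated replicate 1 is far below the others for HK1 (6.83).

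A near-identical copy bears on the SLC2A3 value. SLC2A14 encodes GLUT14, arose by duplication of SLC2A3 and lies beside it, with 0 protein-coding genes between them in the RefSeq table. Its probe set read 9.10, 9.19 and 9.11 in CXCL12 arrays and 8.59, 8.60 and 8.91 in untreated arrays. These groups did not overlap either. The log2 change was 0.43 (SE 0.13, 95% interval 0.15 to 0.71; limma adjusted p = 0.996). Leaving out 1 array gave between 0.38 (untreated replicate 1) and 0.54 (untreated replicate 3). Whether the probes of either set also bind the other transcript was not tested, so which of these genes carries the difference is uncertain. RefSeq also names 3 pseudogenes after SLC2A3.

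SLC2A1, the widespread transporter GLUT1, did not share this direction. It read 9.62, 9.82 and 9.58 in CXCL12 arrays and 9.96, 9.99 and 9.72 in untreated arrays. CXCL12 replicate 2 lay above untreated replicate 3, so the groups overlapped. The log2 change was -0.21 (SE 0.13, 95% interval -0.49 to 0.07; limma adjusted p = 0.996). Within each array, the log2 ratio of SLC2A3 to SLC2A1 was -0.66, -0.83 and -0.32 in CXCL12 arrays and -1.71, -1.38 and -1.15 in untreated arrays. Levels of different probe sets are not comparable, so the ratio is informative only through its difference between groups. That difference was 0.81 (mean -0.60 ± 0.26 in CXCL12 and -1.41 ± 0.28 in untreated arrays; SD, n = 3 each), with no overlap. The exact permutation test gave p = 0.1, the smallest possible, and 0.675 after adjustment over the 9 pairs of isozymes or related genes compared.

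Set against all the other genes of the list, SLC2A3 lay apart in each CXCL12 array. It was singled out with earlier results of these data known, so this restates its change and is not independent support. With every gene centred on its own untreated mean, SLC2A3 minus the median of the other 28 genes was 0.49, 0.57 and 0.82 in CXCL12 replicates 1, 2 and 3. It was -0.13, 0.08 and 0.04 in untreated replicates 1, 2 and 3, where the centring itself keeps values around 0. The medians of the 28 genes themselves were -0.01, -0.06 and -0.03 in CXCL12 arrays and -0.10, 0.05 and 0.05 in untreated arrays. The CXCL12 medians thus lay below those of untreated replicates 2 and 3. They were within the untreated range only through untreated replicate 1, the array that stood apart.

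**Figure D2:**
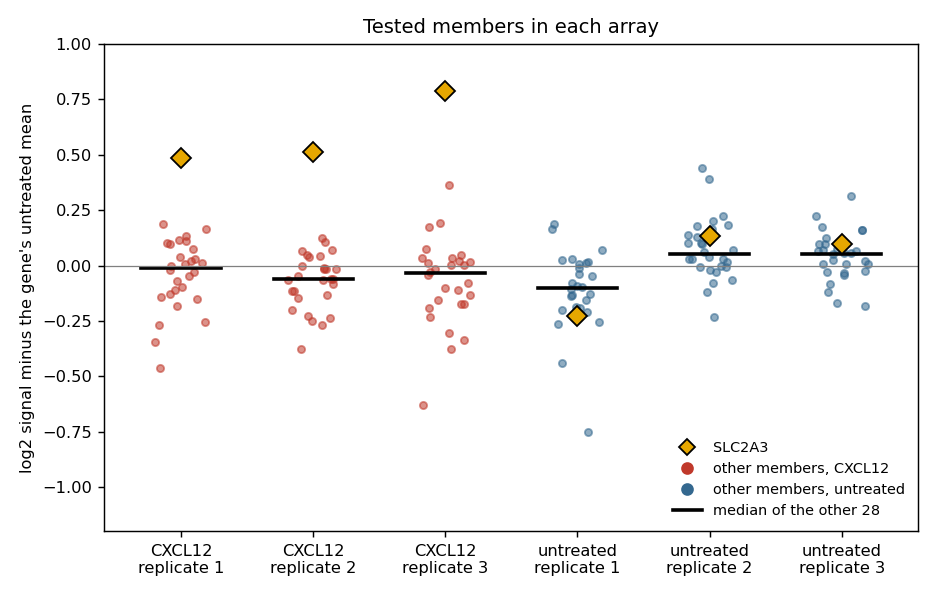
Log2 signal minus the gene's untreated mean (y axis) for the 29 tested genes in each of the 6 arrays (x axis, CXCL12 at the left), with SLC2A3 as diamonds and the median of the other 28 genes as a bar. The diamonds lie at 0.48, 0.51 and 0.79 in the CXCL12 arrays, above the other genes, while the bars stay between -0.10 and 0.05. SLC2A3 was singled out with earlier results of these data known.

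The set as a whole had small changes, with a median of -0.06 (quartiles -0.13 and -0.002) over the 29 genes, beside a median of 0.002 (quartiles -0.09 and 0.10) over all tested probe sets. Of the 29, 7 had a positive and 22 a negative change, whereas 50.7% of all probe sets had a positive one. The number with a negative change was 20 after quantile normalization or cyclic loess, and ran from 17 (without CXCL12 replicate 2 or untreated replicate 3) to 24 (without untreated replicate 1). The median was -0.03 after either of these scalings, and leaving out untreated replicate 1, 2 or 3 gave -0.11, -0.01 or -0.02. For 26 of the 29 genes the 95% interval stayed inside 1.5-fold in both directions, which 89.9% of all probe sets did. The 3 exceptions were SLC2A3, HK1 and HIF1A. Leaving out 1 array moved the change by over 1.5 times or turned its sign for 25 of the 29 genes, all but SLC2A3, SLC2A1, LDHA and GAPDH. Untreated replicate 1 gave the lowest of the 6 values for 14 of the 29 genes, against 25% of all probe sets.

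Hexokinases, which commit glucose to the cell, varied most between untreated arrays. HK1 read 7.68, 7.57 and 7.77 in CXCL12 arrays and 6.83, 8.02 and 7.89 in untreated arrays. Untreated replicate 1 was the low one, and the CXCL12 arrays fell between it and the other untreated arrays. HK2, the inducible hexokinase, showed the same pattern with 6.97, 7.17 and 6.74 in CXCL12 arrays and 6.68, 7.51 and 7.17 in untreated arrays. The changes were 0.09 for HK1 (SE 0.25, 95% interval -0.44 to 0.63) and -0.16 for HK2 (SE 0.19, -0.58 to 0.26; limma adjusted p = 0.996 for both). Their sign depended on single arrays, with -0.28 for HK1 without untreated replicate 1 and 0.03 for HK2 without untreated replicate 2.

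The following steps of upper glycolysis were close to their untreated levels. PFKFB3 makes fructose 2,6-bisphosphate, the activator of phosphofructokinase. It read 6.37, 6.23 and 6.55 in CXCL12 arrays and 6.05, 6.41 and 6.11 in untreated arrays, a change of 0.20 (95% interval -0.11 to 0.50; limma adjusted p = 0.996). Its groups overlapped through untreated replicate 2. The change was 0.12 without CXCL12 replicate 3 and 0.31 without untreated replicate 2. GPI, which isomerizes glucose 6-phosphate, had a change of -0.10, and TPI1, which interconverts the triose phosphates, -0.06. The phosphofructokinase subunits PFKL, PFKM and PFKP had -0.11, -0.10 and -0.03. The aldolases ALDOA and ALDOC, which split fructose 1,6-bisphosphate, had -0.002 and -0.13. All these groups overlapped. With 1 array left out, GPI ran from -0.21 (without untreated replicate 1) to -0.04 (untreated replicate 3), PFKM from -0.16 (untreated replicate 3) to -0.01 (untreated replicate 1), ALDOC from -0.21 (untreated replicate 1) to -0.04 (untreated replicate 2) and TPI1 from -0.14 (CXCL12 replicate 2) to -0.002 (CXCL12 replicate 3). The sign of PFKL turned without CXCL12 replicate 1 (0.07), that of PFKP without untreated replicate 2 (0.07), and that of ALDOA with quantile normalization (0.02) and cyclic loess (0.03).

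In lower glycolysis, each of the 6 genes had an interval inside 1.5-fold in both directions. GAPDH, which oxidizes glyceraldehyde 3-phosphate, read 12.62, 12.67 and 12.68 in CXCL12 arrays and 12.70, 12.71 and 12.74 in untreated arrays. Every CXCL12 array was thus below every untreated one, by 0.03 at the nearest, with a change of -0.06 (95% interval -0.30 to 0.18; limma adjusted p = 0.996). GAPDH was the 1 tested gene of the 29 with this order, which 4.48% of all probe sets had, and SLC2A3 the 1 with the opposite order, which 5.05% had. PGK1 and PKM, which form ATP, had changes of -0.09 and 0.06. PGAM1, which moves the phosphate of 3-phosphoglycerate, had -0.03, and the enolases ENO1 and ENO2 had -0.03 and -0.16. Without untreated replicate 1, ENO1 had -0.08 and ENO2 -0.29, and without untreated replicate 3, they had -0.003 and -0.08. The sign turned for PGK1 without untreated replicate 3 (0.0009), for PKM without untreated replicate 1 (-0.03) and for PGAM1 without CXCL12 replicate 2 (0.08). RefSeq names 65 pseudogenes after GAPDH, 46 after BNIP3, a hypoxia gene described below, and 13 after PGAM1. It names 6 after LDHA, 5 after PKM and 4 each after ENO1 and TPI1. In all, 17 of the 34 genes of the set have such pseudogenes. Whether their transcripts contribute to the signals was not tested.

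Pyruvate was followed to lactate through LDHA and LDHB, the subunits of lactate dehydrogenase. LDHA read 12.26, 12.18 and 12.13 in CXCL12 arrays and 12.31, 12.23 and 12.38 in untreated arrays. LDHB read 11.98, 11.90 and 11.99 in CXCL12 arrays and 11.91, 11.95 and 12.01 in untreated arrays. Their groups overlapped, with changes of -0.12 (95% interval -0.37 to 0.14) and -0.003 (-0.25 to 0.24). PDK1, the kinase that inactivates pyruvate dehydrogenase, read 9.35, 9.17 and 9.22 in CXCL12 arrays and 9.24, 9.34 and 9.53 in untreated arrays. Its change was -0.13 (95% interval -0.40 to 0.15), and the groups overlapped. Leaving out untreated replicate 1 gave -0.19 for PDK1, and leaving out untreated replicate 3 gave -0.04. The limma adjusted p was 0.996 for LDHA and PDK1 and 0.999 for LDHB. LDHB had 0.006 with quantile normalization and 0.02 with cyclic loess.

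Between isozymes of one step, differences in the within-array ratio were small. The exact permutation test could not decide whether a ratio differed, because its smallest possible p of 0.1 lies above 0.05. The within-array log2 ratio of LDHB to LDHA was higher by 0.11 in CXCL12 arrays, while that of HK2 to HK1 was lower by 0.25, that of ALDOC to ALDOA by 0.13 and that of ENO2 to ENO1 by 0.13. The ratios among the phosphofructokinase subunits differed by 0.006 (PFKM to PFKL), 0.08 (PFKP to PFKL) and 0.08 (PFKP to PFKM), and that of BNIP3L to BNIP3 by 0.06. Apart from SLC2A3 to SLC2A1, the groups overlapped for all of these pairs, with exact permutation p from 0.2 to 1. Their p adjusted over the 9 pairs ran from 0.675 to 1.

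HIF1A and the enzymes that control it were examined at the transcript level. HIF1A read 8.76, 9.17 and 8.47 in CXCL12 arrays and 9.27, 8.87 and 9.17 in untreated arrays. CXCL12 replicates 1 and 3 were the lowest of the 6, but CXCL12 replicate 2 lay within the untreated range. The change was -0.30 (SE 0.18, 95% interval -0.68 to 0.08; limma adjusted p = 0.996), with -0.49 without CXCL12 replicate 2 and -0.14 without CXCL12 replicate 3. EGLN1, the main HIF prolyl hydroxylase, read 7.16, 6.76 and 7.16 in CXCL12 arrays and 6.95, 7.02 and 7.0 in untreated arrays. Its change of 0.04 (95% interval -0.26 to 0.33) became -0.03 without CXCL12 replicate 1 or 3.

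EGLN3, a hydroxylase that HIF itself induces, was left out of the test as dim. Its signal was 4.33, 4.15 and 4.02 in CXCL12 arrays and 4.54, 4.51 and 4.46 in untreated arrays, on either side of the limit of 4.44. All CXCL12 arrays were lower, with a difference of -0.34, an order that 4.48% of the tested probe sets had. Without the filter on dim probe sets EGLN3 had an unadjusted limma p of 0.0211 and an adjusted p of 0.992. Of the tested probe sets, 2.01% had an unadjusted limma p under 0.05 with a lower signal. EGLN3 was chosen for this description after its values were seen.

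Other hypoxia genes of the set showed neither direction clearly. VEGFA, the vascular growth factor, read 9.80, 9.75 and 9.67 in CXCL12 arrays and 9.58, 9.83 and 9.65 in untreated arrays, with a change of 0.05 (95% interval -0.21 to 0.32). BNIP3, a mitochondrial receptor for mitophagy, read 10.57, 10.45 and 10.57 in CXCL12 arrays and 10.44, 10.63 and 10.63 in untreated arrays, with a change of -0.04 (-0.30 to 0.22). Both groups of values overlapped, and the limma adjusted p was 0.996 for both genes. Its relative BNIP3L had a change of 0.03, P4HA1, a collagen prolyl hydroxylase subunit, -0.14, and ANKRD37, an ankyrin repeat protein, -0.02. NDRG1, a stress-responsive gene, had -0.23 (95% interval -0.53 to 0.07; limma adjusted p = 0.996), and -0.36 without CXCL12 replicate 1 and -0.15 without CXCL12 replicate 2. VEGFA had 0.0009 without untreated replicate 1 and 0.12 without untreated replicate 2, P4HA1 -0.20 without untreated replicate 2 and -0.08 without CXCL12 replicate 2, and BNIP3L 0.0004 without CXCL12 replicate 3. BNIP3 turned to 0.0008 without CXCL12 replicate 2 and ANKRD37 to 0.09 without untreated replicate 3.

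**Figure D3:**
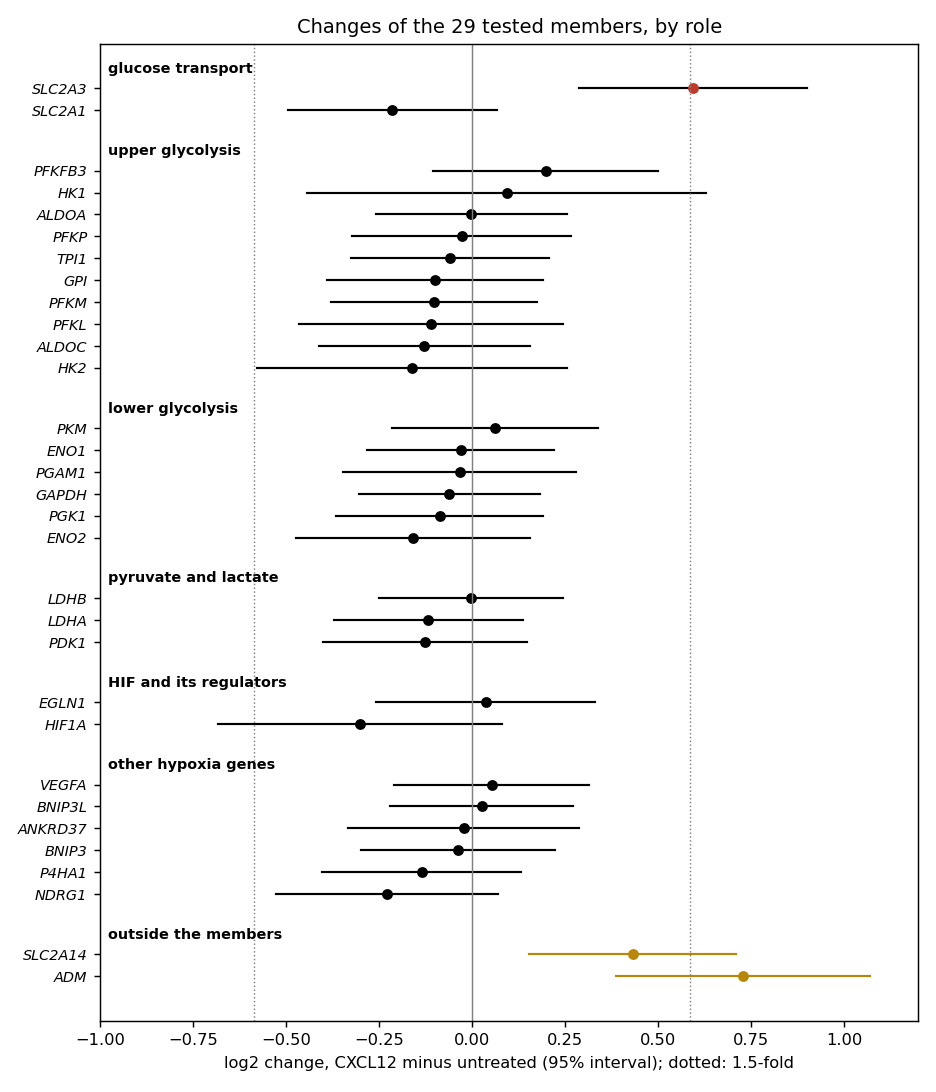
Log2 change, CXCL12 minus untreated (x axis), with 95% intervals from limma for the 29 tested genes grouped by role, and for SLC2A14 and ADM outside the set (gold). Dotted lines mark 1.5-fold. Of the genes of the set, the intervals of SLC2A3, HK1 and HIF1A reach beyond them, and only that of SLC2A3 (0.29 to 0.90) lies wholly above 0. The intervals of SLC2A14 and ADM also reach beyond 1.5-fold.

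Neighbouring pathways were described from 8 lists of 147 genes outside the set, of which 117 were tested. The median change of the 117 was -0.02, with 55 above and 62 below 0, and 0 passed the adjusted threshold. An unadjusted limma p under 0.05 was met by 3 with a higher and 3 with a lower signal, close to the 2.72% and 2.01% of all probe sets. The CXCL12 arrays were all higher for 5 and all lower for 8, where 5.05% and 4.48% of all probe sets had these orders. The list medians were 0.005 for other glycolytic isozymes (20 tested), 0.04 for other glucose and monocarboxylate transporters (13), 0.06 for the pentose phosphate pathway (8), -0.06 for gluconeogenesis and glycogen (11) and -0.09 for pyruvate entry into mitochondria (11). They were -0.04 for the tricarboxylic acid cycle (17), -0.03 for the HIF machinery (14) and 0.01 for other HIF targets (24).

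The genes with the smallest p in each list had changes below 0.5, except ADM. Among relatives of PFKFB3, PFKFB2 had 0.29 (0.11 without untreated replicate 1) and PFKFB1 -0.29 (-0.46 without CXCL12 replicate 2, -0.19 without untreated replicate 1). SLC16A7, the lactate and pyruvate carrier MCT2, had 0.26 (0.15 without CXCL12 replicate 3). TKTL1 and TKT, transketolases of the pentose phosphate pathway, had 0.16 and -0.14, and PCK1 and G6PC3, enzymes of gluconeogenesis, 0.21 and -0.20. Without CXCL12 replicate 2, TKTL1 had 0.09 and PCK1 0.11, TKT had -0.09 without untreated replicate 2, and G6PC3 -0.13 without untreated replicate 1. PDK3, another pyruvate dehydrogenase kinase, had -0.29 (-0.14 without untreated replicate 1), PDHX, a structural part of that dehydrogenase complex, -0.18, and SDHC and IDH3B of the tricarboxylic acid cycle -0.23 (-0.14 without untreated replicate 1) and -0.19. The limma adjusted p of each of these genes was 0.996.

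Within the HIF lists, 0 genes passed the adjusted threshold. Of the 24 other targets, 2 had an unadjusted limma p under 0.05 with a higher signal and 2 with a lower one. Of all probe sets, 2.72% and 2.01% met this. ADM, the peptide adrenomedullin, read 6.59, 6.55 and 6.85 in CXCL12 arrays and 5.62, 6.19 and 6.0 in untreated arrays, a change of 0.73 (SE 0.16, 95% interval 0.39 to 1.07; limma adjusted p = 0.655). CA12, a carbonic anhydrase, had 0.38, with means of 4.94 in CXCL12 and 4.56 in untreated arrays, near the dim limit. SIAH2, a ubiquitin ligase that acts on EGLN proteins, had -0.32 (-0.20 without untreated replicate 2), and EPAS1, which encodes HIF-2 alpha, 0.26. RORA, a nuclear receptor, had -0.36 and CXCR4, the receptor of CXCL12, -0.37; both were singled out after their values were seen, as the other HIF targets with an unadjusted p under 0.05. Their changes were -0.25 for RORA and -0.25 for CXCR4 without untreated replicate 1. Leaving out that array also lowered the changes of ADM to 0.57, CA12 to 0.30 and EPAS1 to 0.18, whereas SIAH2 had -0.44. The limma adjusted p of CA12, SIAH2, EPAS1, RORA and CXCR4 was 0.996. Among these 24 targets, ADM, CA12 and HMOX1 had all CXCL12 arrays above all untreated ones, an order that 5.05% of all probe sets had. HMOX1 encodes the haem-degrading enzyme heme oxygenase 1, and its groups were only 0.007 apart at the nearest. RORA, ERO1A and PPFIA4 had all CXCL12 arrays below all untreated ones, which 4.48% of all probe sets had. SIAH2, in the list of the HIF machinery, had this order too. HMOX1 (0.19), ERO1A (-0.15) and PPFIA4 (-0.21) are named after their values were seen.

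**Figure D4:**
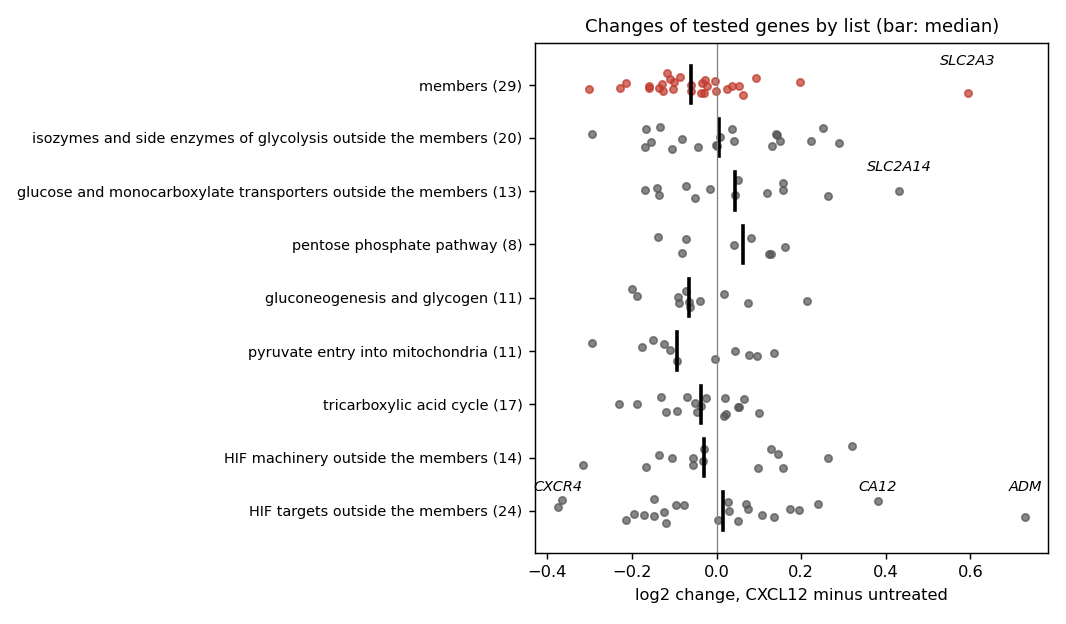
Log2 change, CXCL12 minus untreated (x axis), of the tested genes in the set (red) and in the 8 lists outside it (grey), with the number tested in brackets and the median as a bar. Medians lie between -0.09 and 0.06, and SLC2A3 (0.59) and ADM (0.73) lie furthest to the right.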

How the data were processed

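RNA from 6 samples was measured on 1 Affymetrix array each. The deposited log2 values, 1 per probe set and array, were made with RMA and the Transcriptome Analysis Console, per the submitters' processing notes. Which versions or settings were used, and on which genome build, is not given in the sources used here. In the authors' table there are 21448 probe sets, and the values run from 1.99 to 13.1. The number of arrays limits the precision, and scanner files were not used here.

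Gene symbols came from the platform annotation, which can be old (17709 probe sets with 1 symbol, 0 with several, 3739 unnamed here). All 34 symbols of the set occur in the RefSeq table of GRCh38.p14. Where a symbol has several probe sets, the one of highest mean stands for it. The lowest 25% of probe sets by mean (below 4.44) were left out as dim. CXCL12 was compared with untreated in R 4.3.3 with limma 3.58.1, using lmFit, eBayes and no covariates, and two-sided p-values were adjusted by Benjamini-Hochberg over 16086 probe sets. Single values and ratios between isozymes or related genes were tested by exact permutation. The fit was tested on simulated data.

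The genes, their roles and the lists were chosen with earlier results of these data known. Values in every array were given for SLC2A3, SLC2A1, HK1, HK2, PFKFB3, LDHA, LDHB, PDK1, HIF1A, VEGFA, EGLN1 and BNIP3, the 2 genes of smallest p were named from each list, with SLC2A14 and ADM added by name, and GAPDH and EGLN3 were chosen after their values were seen. As alternatives, the filter, the normalization, the prior, the thresholds and the averaging of probe sets were changed, array weights or a replicate block were added, and each array was left out. Both groups carry replicate numbers 1 to 3, but no pairing is stated.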

Additional observations from a re-analysis of the deposited data

How the results depend on the processing

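Of the 29 tested genes, 0 passed the adjusted threshold under each of the 15 refits. In the fit as reported, 1 (SLC2A3) met an unadjusted p under 0.05 together with 1.5-fold, but its change was below 1.5-fold in 4 of the 15 (0.573 with median centring, 0.53 with array weights, 0.498 when CXCL12 replicate 3 and 0.48 when untreated replicate 1 was left out). SLC2A3 kept a positive change in all 15 (0.48 to 0.66), with limma adjusted p from 0.446 (array weights) to 1. The count over all probe sets, 2, became 34 under the unadjusted p with 1.5-fold, 1 with cyclic loess, median centring or every probe set tested, 4 with array weights, and 1 to 2 when each array was left out. With the replicate block, SLC2A3 had a change of 0.59 (limma adjusted p = 0.999) and 0 genes of the set passed; deviations of same-numbered arrays correlated at -0.19, -0.11 and 0.11, and not every array correlated best with its own number. Averaging the probe sets of a symbol changed no gene of the set, as each has 1. Of the 29 genes, 17 kept their sign throughout. Signs turned with quantile normalization (ALDOA 0.0188, LDHB 0.00558), cyclic loess (ALDOA 0.0252, LDHB 0.0242) and array weights (HK1 -0.10). When each array was left out, values ran from -0.0509 to 0.0361 for ALDOA, -0.0267 to 0.0257 for LDHB, -0.282 to 0.313 for HK1, -0.381 to 0.0341 for HK2, -0.227 to 0.0672 for PFKL, -0.133 to 0.0723 for PFKP, -0.134 to 0.0844 for PGAM1, -0.183 to 0.000868 for PGK1, -0.0306 to 0.151 for PKM, -0.0315 to 0.169 for EGLN1, -0.102 to 0.000783 for BNIP3 and -0.151 to 0.0901 for ANKRD37. None of these was past the threshold, and the cause was not tested. Of the pathway genes named outside the set, 18 were refitted, which was added after seeing the data, but not HMOX1, ERO1A and PPFIA4. The 18 kept their signs in every setting in which they were tested, but leaving out 1 array moved 10 of them by over 1.5 times. Over the 29 genes, 95% intervals reached 0.28 to either side at the median, so smaller changes were mostly not resolved with 3 arrays a group.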
